A study of Mus musculus with 12 samples.

Results

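A set of 41 genes of fatty acid oxidation and ketone body metabolism were followed in the livers of mice given concanavalin A (Con A). The genes were taken as the rows whose gene name equalled a listed name, and all 41 of 41 listed names had a row among the 11289 genes of the table. By the place where their proteins are known to work, 20 were counted as mitochondrial, 11 as peroxisomal, 3 as shared by both compartments, and 7 as lying elsewhere, in the cytosol, in other membranes or at the cell surface.

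In hepatocytes, a fatty acid is bound, joined to coenzyme A and, for the long chains, passed to carnitine so that it can enter the mitochondrion. There a repeating spiral of dehydrogenation, hydration, a further dehydrogenation and thiolysis shortens the chain, electrons pass through the electron transfer flavoprotein to the respiratory chain, and much of the acetyl-CoA leaves the fasting liver as ketone bodies. Peroxisomes run a parallel spiral on very long chain, branched and dicarboxylic acids and hand shortened chains on to mitochondria. Many genes of both routes are known targets of PPARalpha, a nuclear receptor that binds fatty acids and pairs with RXR on direct repeats of a short hexamer.

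The livers came from 12 C57BL/6J mice in 3 groups of 4, aged 8 to 10 weeks per the labels. The Con A + PBS group received a single tail vein dose of 15 mg/kg Con A, a jack bean lectin by which T cells are stimulated and acute hepatitis follows, and PBS alone 30 min later. The Con A + hWJ-MSCs group received the same Con A dose and, at the same 30 min, an intravenous infusion of 2000000 human mesenchymal stem cells from the Wharton's jelly of umbilical cord, so that the infused cells were from another species. The cell number and ages here are those of the labels, and the study's methods text gives fewer cells and younger mice. For the control group the labels name no agent, and no source used here says that these mice were injected. Livers were taken 24 h later, so every value below is for whole tissue at a single time. In whole tissue, fewer cells of a type and less RNA per cell cannot be told apart.

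Each value is a whole-number score per gene, already normalized between mice by the authors, so it is not a read count and the sequencing depth behind it is unknown. The scores of a mouse summed to between 17649654 and 17657159, and their median was 352 in every mouse. At the upper end many scores were shared exactly between mice, as with the 20792 that 3 control mice had for Scp2. Different genes shared scores as well, as with 10968 for Abcd3 in control mouse 2 and for Crot in Con A + hWJ-MSCs mouse 3. Changes at the upper end can therefore be steps between shared scores. On the first 2 principal components of all genes, Con A + PBS mouse 4 stood apart from its group, at -55.2 on the second component against -15.0 to 7.57 for the other Con A + PBS mice. Among the 41 genes this mouse had the lowest score of its group for 23 and the highest for 11.

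All 12 of the hepatocyte markers looked for had a row, and their mean log2 level ranged over 16.39 to 16.56 in control livers, 16.04 to 16.26 in Con A + PBS livers and 16.05 to 16.13 in Con A + hWJ-MSCs livers. Their summed score ranged over 1545946 to 1924639, 1541297 to 1612029 and 1407510 to 1417450 in that order. These levels are a coarse measure of hepatocyte content, since Alb stood at the table's largest score of 341028 and Cps1 at 147960 in all 12 mice, and Trf at 341028 in all control and Con A + PBS mice and at 147377 in all 4 mice given cells. After Con A, 1 of the 12 rose and 3 fell, in a table where 19.5% of all genes rose and 19.2% fell (with a fold change over 1.5 and an adjusted p under 0.05). All 5 neutrophil markers rose, with a summed score of 67 to 147 in control, 818 to 1812 after Con A and PBS, and 811 to 1653 with hWJ-MSCs. The 3 of 8 T and NK cell markers with a row also rose, from a summed score of 16 to 50 in control livers to 404 to 817 after Con A, and stood at 426 to 740 with cells. Of 9 macrophage and monocyte markers 3 rose and 5 fell (summed score 3524 to 5442 in control, 2273 to 2897 after Con A and PBS, and 1309 to 3339 with hWJ-MSCs). Of 6 endothelial markers 1 rose and 3 fell (2431 to 3424, 1500 to 1901 and 1603 to 1972), and of 5 stellate cell markers 3 fell (3904 to 6444, 4981 to 5848 and 3416 to 4628). The 2 of 4 cholangiocyte markers with a row summed to 170 to 274, 348 to 1011 and 302 to 426. None of these markers was at 0 in all mice, none of the 4 B cell markers looked for had a row, and the part of cell composition in the results below was not tested.

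Several of the 41 genes lie next to a close relative or a partner, and the stretches of 250 bases before the start of transcription are shown for those that the comparisons below set side by side. Sequences are RefSeq's, of build GRCm38.p6, written 5' to 3' on the strand of the gene, and 36 of the 41 genes had an entry. The RefSeq start of Acaa1a lies 1618 bases downstream of the start given in the deposited table, so its window lies within the deposited span of the gene. Acadm, Acadvl, Acot12, Acot4, Acsm1, Cd36, Cpt1a, Echs1, Fabp1 and Scp2, 10 of the 36 (27.8%), held the hexamer AGGTCA on either strand, against 15.8% of 27025 genes searched in the same way. The exact direct repeat AGGTCANAGGTCA was in none of the 36 and in 0.0407% of all genes. The looser form AGGNCANAGGNCA was in Fabp1 alone, 2.78% of the 36 against 0.400% of all genes, and there it overlaps a hexamer match. Capitals mark matches to the hexamer or to the looser repeat on either strand.

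The paired thiolase genes Acaa1a and Acaa1b lie on the same chromosome and are shown because only Acaa1b was called after Con A. Neither window held the hexamer.
Acaa1a (chr9:119341044-119341293, plus strand): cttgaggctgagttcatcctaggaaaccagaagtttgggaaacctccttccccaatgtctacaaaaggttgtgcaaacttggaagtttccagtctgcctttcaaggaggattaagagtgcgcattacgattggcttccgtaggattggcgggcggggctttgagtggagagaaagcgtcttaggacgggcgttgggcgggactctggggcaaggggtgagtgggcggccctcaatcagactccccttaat
Acaa1b (chr9:119157094-119157343, minus strand): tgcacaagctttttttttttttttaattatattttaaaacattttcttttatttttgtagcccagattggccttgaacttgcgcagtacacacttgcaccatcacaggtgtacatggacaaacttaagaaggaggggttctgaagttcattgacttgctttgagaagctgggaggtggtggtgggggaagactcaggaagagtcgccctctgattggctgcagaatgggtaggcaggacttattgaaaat

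The thioesterase genes Acot1, Acot4 and Acot3 lie in this order within one cluster on chromosome 12, and are shown because Acot3 and Acot4 fell after Con A while Acot1 was not called. Of the 3 windows, that of Acot4 held a hexamer match.
Acot1 (chr12:84009252-84009501, plus strand): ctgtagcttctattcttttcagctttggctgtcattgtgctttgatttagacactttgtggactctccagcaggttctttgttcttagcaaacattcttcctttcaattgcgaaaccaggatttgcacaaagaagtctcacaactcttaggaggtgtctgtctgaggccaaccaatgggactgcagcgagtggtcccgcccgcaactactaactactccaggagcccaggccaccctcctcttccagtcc
Acot4 (chr12:84038129-84038378, plus strand): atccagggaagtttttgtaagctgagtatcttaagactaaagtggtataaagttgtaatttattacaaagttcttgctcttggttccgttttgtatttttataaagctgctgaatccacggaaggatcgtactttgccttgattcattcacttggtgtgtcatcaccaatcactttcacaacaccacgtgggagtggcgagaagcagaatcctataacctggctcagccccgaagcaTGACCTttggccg
Acot3 (chr12:84051894-84052143, plus strand): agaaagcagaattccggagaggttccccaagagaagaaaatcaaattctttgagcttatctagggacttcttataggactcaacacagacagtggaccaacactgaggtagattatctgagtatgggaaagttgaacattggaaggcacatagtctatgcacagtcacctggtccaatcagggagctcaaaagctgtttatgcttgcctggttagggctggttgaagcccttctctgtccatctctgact

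Hadha and Hadhb, which encode the subunits of the trifunctional protein, are transcribed head to head, with starts that the deposited positions place 86 bases apart, so that the window of Hadhb also covers the deposited start of Hadha. The RefSeq start of Hadha lies 182 bases from the deposited one and outside this window. The window of Fabp1 is the one with the looser repeat.
Hadhb (chr5:30155003-30155252, plus strand): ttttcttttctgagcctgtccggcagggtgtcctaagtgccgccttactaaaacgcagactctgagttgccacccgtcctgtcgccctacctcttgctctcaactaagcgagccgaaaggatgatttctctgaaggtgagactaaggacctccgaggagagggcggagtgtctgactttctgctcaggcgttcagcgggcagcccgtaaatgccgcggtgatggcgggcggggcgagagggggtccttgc
Fabp1 (chr6:71199629-71199878, plus strand): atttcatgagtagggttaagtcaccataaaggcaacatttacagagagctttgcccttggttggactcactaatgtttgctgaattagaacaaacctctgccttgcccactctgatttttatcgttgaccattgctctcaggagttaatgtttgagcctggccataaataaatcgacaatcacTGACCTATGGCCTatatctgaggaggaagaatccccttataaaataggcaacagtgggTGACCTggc

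In Con A + PBS livers the fatty acid oxidation genes moved in both directions relative to control livers. Medium-chain synthetases (Acsm1, Acsm3, Acsm5), the short-chain hydroxyacyl-CoA dehydrogenase Hadh, the flavoprotein subunit Etfa, the peroxisomal thiolase Acaa1b and the thioesterases Acot3 and Acot4 fell. The pantetheinase Vnn1, the peroxisome division factor Pex11a, carnitine acetyltransferase (Crat), the long-chain acyl-CoA dehydrogenase Acadl, the trifunctional subunit Hadhb and the isomerase Eci2 rose. In counts, 13 of the 41 genes fell and 6 rose with a fold change over 1.5 and an adjusted p under 0.05, where 19.2% of all 11289 genes fell and 19.5% rose. The median log2 fold change was -0.27 over the 41 genes and 0.05 over all genes. Changes are limma log2 fold changes of score + 1 with their SE, from 4 mice a group, and adjusted p-values are Benjamini-Hochberg over all genes.

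**Figure D1:**
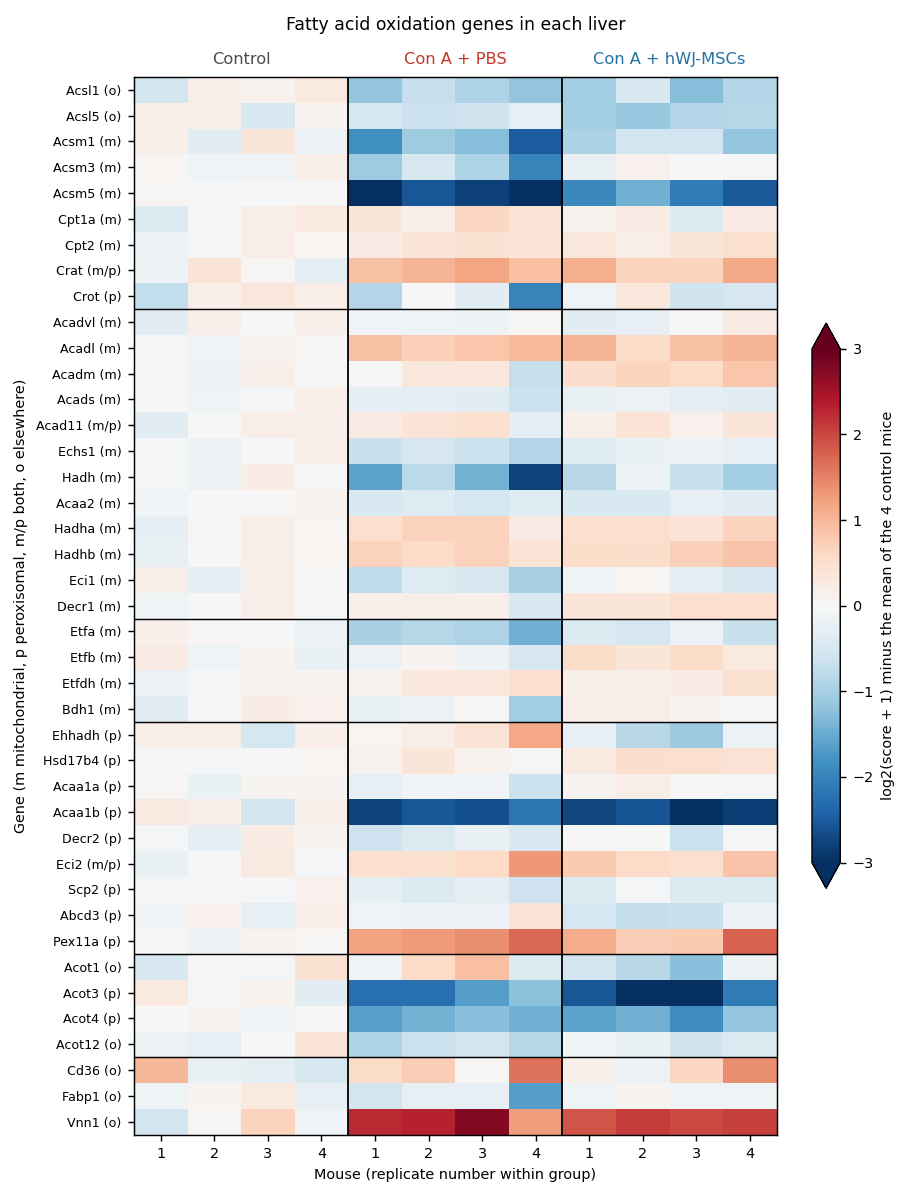
Colour shows log2(score + 1) in each of the 12 mice (columns) for the 41 genes (rows, in role groups), minus the mean of the 4 control mice, and saturates beyond 3 in either direction. Acsm5, Acaa1b, Acot3 and Acot4 are below control in all 8 mice given Con A, while Vnn1, Pex11a, Crat and Acadl are above it in all 8.

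Of the 9 genes of activation and carnitine transfer, 4 fell, 1 rose and 4 met neither criterion, with a median log2 fold change of -0.81. Acsm5 (chr7:119526304-119543793), one of a row of medium-chain acyl-CoA synthetase genes of the mitochondrial matrix, had scores of 1816, 1694, 1762 and 1791 in the control mice and 196, 297, 252 and 129 in the Con A + PBS mice. The groups were far apart, and the change was -3.07 ± 0.25 (limma, adjusted p = 1.51e-06). Its neighbour Acsm1 (chr7:119617781-119662515) scored 8535, 6158, 9867 and 6756 in control and 2144, 3698, 3164 and 1369 in Con A + PBS mice. Every Con A + PBS mouse lay below every control mouse, with a change of -1.67 ± 0.28 (limma, adjusted p = 0.000312). Acsm3 (chr7:119760923-119784893), of the same cluster, scored 1430, 1260, 1278 and 1592 against 660, 996, 730 and 342, again without overlap, and changed by -1.12 ± 0.25 (limma, adjusted p = 0.00213).

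Acsl1, the main long-chain acyl-CoA synthetase of liver, went from 11034 ± 2568 (SD, n = 4) to 5487 ± 931, a change of -0.99 ± 0.21 (limma, adjusted p = 0.00193). For Acsl5, another long-chain synthetase, the groups overlapped and the change of -0.51 lay under the fold criterion (limma, adjusted p = 0.0137), though without Con A + PBS mouse 4 or without control mouse 3 it was -0.59 or -0.66 and called. Crat, which moves acetyl groups between coenzyme A and carnitine, scored 859 ± 182 in control and 1695 ± 178 in Con A + PBS livers and rose by 1.00 ± 0.16 (limma, adjusted p = 0.000239). Cpt2, the carnitine palmitoyltransferase of the inner mitochondrial membrane, moved least of the group. Its scores were 1768, 1911, 2275 and 2066 in control and 2386, 2594, 2746 and 2594 in Con A + PBS mice, which did not overlap although the difference of 0.37 ± 0.11 was under the fold criterion (limma, adjusted p = 0.0103). Cpt1a, the enzyme that commits long chains to mitochondrial oxidation, ranged over 2362 to 3810 in control and 3494 to 4840 in Con A + PBS mice, with overlap and a difference of 0.39 (95% interval -0.00 to 0.78). Crot, the peroxisomal octanoyltransferase, was the least even of the 9, from 9876 to 20910 in control and 4111 to 16359 in Con A + PBS mice. Its difference of -0.81 ± 0.39 did not pass (limma, adjusted p = 0.0956), but it was called down without control mouse 1 (-1.05) and without Con A + PBS mouse 2 (-1.07).

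Of the 12 genes placed with the mitochondrial spiral, 3 fell, 2 rose and 7 met neither criterion, with a median log2 fold change of -0.05. Genes of the spiral moved in both directions. Hadh (chr3:131233419-131272101), which carries out the second dehydrogenation on shorter chains, scored 5134, 4739, 6154 and 5036 in control and 1724, 3006, 1946 and 758 in Con A + PBS mice. All Con A + PBS values lay below control, with the lowest in mouse 4, and the change was -1.66 ± 0.33 (limma, adjusted p = 0.00105). Acadl (chr1:66830839-66863277), which opens the spiral on long chains, scored 3862, 3448, 4040 and 3747 in control and 6944, 6158, 6756 and 7348 in Con A + PBS mice. Here all Con A + PBS values lay above control, and the change was 0.85 ± 0.12 (limma, adjusted p = 9.95e-05).

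The enoyl-CoA hydratase Echs1 fell from 3980 ± 416 to 2487 ± 265 (log2 fold change -0.68 ± 0.11), and the isomerase Eci1, which prepares unsaturated chains, fell from 1633 ± 223 to 1043 ± 196 (-0.66 ± 0.16). Without Con A + PBS mouse 4 the change of Eci1 was -0.54, under the fold criterion. Hadhb, the thiolase subunit of the trifunctional protein, rose from 3004 ± 341 to 4512 ± 433 (0.59 ± 0.12, limma, adjusted p = 0.00148). This lay just past the fold criterion, and it was 0.51 without control mouse 1 and 0.55 without Con A + PBS mouse 1 or mouse 3, all under it. Hadha, its partner subunit, had a change of 0.53 ± 0.14, under the criterion with all mice and past it without control mouse 3 (0.59) or Con A + PBS mouse 4 (0.63). The log2 difference between Hadha and Hadhb, read only across mice because gene length sets its level, was 0.51 to 0.61 in control, 0.38 to 0.67 with Con A and PBS, and 0.25 to 0.55 with Con A and hWJ-MSCs, with overlap between all groups. Of the 100-base windows of Hadhb transcripts, 46.0% also occurred in another annotated gene, so reads could have been split between them.

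Acads, the short-chain dehydrogenase (-0.39), and Acaa2, the mitochondrial thiolase (-0.44), lay below control in every Con A + PBS mouse but under the fold criterion. Acadm, the medium-chain dehydrogenase, Acadvl, the very long chain dehydrogenase, and Acad11, which has been assigned to both compartments, had differences of -0.02, -0.08 and 0.22, none past the test. Decr1, the reductase for polyunsaturated chains, moved least. It scored 2444, 2696, 2974 and 2654 in control and 2974, 3046, 3008 and 1962 in Con A + PBS mice, where 3 mice were at or above the highest control and mouse 4 was below the lowest, so that the difference was 0.01 ± 0.14 (95% interval -0.29 to 0.31).

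Of the 4 genes of electron transfer and ketone bodies, 1 fell and 3 met neither criterion. Etfa (chr9:55454508-55512243), the alpha subunit of the flavoprotein that takes electrons from all the acyl-CoA dehydrogenases of mitochondria, scored 7624, 6950, 6762 and 6044 in control and 3493, 3750, 3594 and 2530 in Con A + PBS mice. The groups did not overlap and the change was -1.05 ± 0.15 (limma, adjusted p = 9.48e-05). Its partner Etfb (chr7:43444108-43457800) scored 3701, 2830, 3322 and 2700 in control and 2734, 3322, 2792 and 2204 in Con A + PBS mice, which overlapped, and its difference of -0.19 ± 0.14 did not pass (limma, adjusted p = 0.284). The log2 difference between Etfa and Etfb was 1.03 to 1.30 in control, 0.17 to 0.36 with Con A and PBS, and 0.17 to 0.40 with Con A and hWJ-MSCs, so the relation between these subunits differed from control in all 8 mice given Con A. Of the Etfb windows, 47.7% were shared with another annotated gene. Etfdh, which passes the electrons to ubiquinone, had a difference of 0.30, under the fold criterion. Bdh1, which interconverts acetoacetate and 3-hydroxybutyrate, the main ketone bodies, scored 1810, 2204, 2660 and 2474 in control and 1964, 2014, 2318 and 1092 in Con A + PBS mice. The groups overlapped, with mouse 4 of the Con A + PBS group lowest, and the difference of -0.35 ± 0.20 did not pass (limma, adjusted p = 0.161).

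Of the 9 genes placed with peroxisomal oxidation, 1 fell, 2 rose and 6 met neither criterion, with a median log2 fold change of -0.01. Acaa1b (chr9:119148023-119157093), a peroxisomal 3-ketoacyl-CoA thiolase, scored 15057, 13920, 8514 and 13920 in control and 1850, 2159, 2020 and 2753 in Con A + PBS mice. The groups were far apart and the change was -2.53 ± 0.20 (limma, adjusted p = 1.41e-06). The other thiolase of the pair, Acaa1a (chr9:119339676-119342752), ranged over 2234 to 2722 in control and 1633 to 2437 in Con A + PBS mice, with overlap and a difference of -0.27 ± 0.13 (limma, adjusted p = 0.108). The log2 difference of Acaa1a from Acaa1b was -2.64 to -1.64 in control, -0.75 to 0.27 with Con A and PBS, and 0.50 to 0.99 with Con A and hWJ-MSCs. Their transcripts share 15.7% of the windows of Acaa1a and 22.6% of those of Acaa1b, and the deposited Acaa1a transcript is a short one of 646 bases, so the division of reads between the thiolases is uncertain.

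Pex11a (chr7:79735957-79743080), which takes part in peroxisome elongation and division, scored 800, 721, 862 and 822 in control and 1860, 1940, 2112 and 2630 in Con A + PBS mice. All Con A + PBS values were above control, and the change was 1.40 ± 0.20 (limma, adjusted p = 0.000101). Eci2, an isomerase of peroxisomes and mitochondria, rose from 2330 ± 340 to 3946 ± 1182 (0.73 ± 0.18, limma, adjusted p = 0.0043), and without Con A + PBS mouse 4, the highest, its change was 0.54, under the fold criterion. Ehhadh, the peroxisomal bifunctional enzyme, ranged over 3786 to 6291 in control and 5710 to 12175 in Con A + PBS mice, with overlap and a difference of 0.46 ± 0.27 that did not pass (limma, adjusted p = 0.168). Hsd17b4, the other bifunctional enzyme, differed by 0.14 (adjusted p = 0.317), the reductase Decr2 by -0.43 and the thiolase and sterol carrier gene Scp2 by -0.40, the last 2 with an adjusted p of 0.038 and 0.0202 but under the fold criterion. Of the Scp2 windows, 28.6% were shared with another annotated gene, Scp2-ps2. Abcd3, the peroxisomal membrane transporter of acyl-CoA, moved least. It scored 9424, 10968, 8542 and 11614 in control and 9424, 8917, 8917 and 13247 in Con A + PBS mice, a difference of -0.01 ± 0.17 (95% interval -0.38 to 0.35), with mouse 4 of the Con A + PBS group the highest of all 12.

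Of the 4 acyl-CoA thioesterases, which split acyl-CoA back into free acid and coenzyme A, 3 fell. Acot3 (chr12:84052144-84059565), a peroxisomal enzyme, scored 907, 706, 792 and 582 in control and 152, 154, 234 and 316 in Con A + PBS mice, without overlap, and changed by -1.85 ± 0.29 (limma, adjusted p = 0.000198). Acot4 (chr12:84038379-84044723), also peroxisomal and specific for succinyl-CoA and related chains, scored 716, 775, 692 and 730 in control and 233, 270, 304 and 268 in Con A + PBS mice. Both groups were narrow and far apart, with a change of -1.44 ± 0.14 (limma, adjusted p = 4.97e-06). Acot1 (chr12:84009502-84017670), the cytosolic member of the cluster, scored 301, 423, 404 and 573 in control and 389, 623, 774 and 306 in Con A + PBS mice, which overlapped, with a difference of 0.24 ± 0.30 (limma, adjusted p = 0.522). Acot1 shares 21.5% of its windows with other annotated genes, mostly Acot2, and Acot3 shares 13.8%, mostly with the gene model Gm49366, against 0.350% for Acot4. Acot12, a cytosolic acetyl-CoA thioesterase on chromosome 13, fell from 1930 ± 399 to 1140 ± 144 (-0.75 ± 0.15, limma, adjusted p = 0.00143).

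Among the genes of uptake, binding and pantetheine breakdown, 1 rose and 1 fell. Vnn1 (chr10:23894688-23905343), a pantetheinase at the cell surface that frees cysteamine and pantothenate, the vitamin part of coenzyme A, scored 359, 554, 850 and 498 in control and 2552, 2654, 3646 and 1276 in Con A + PBS mice. All Con A + PBS mice were above control, mouse 4 least so, and the change of 2.13 ± 0.29 was the largest increase of the 41 genes (limma, adjusted p = 7.64e-05). Cd36, a fatty acid translocase, scored 1649, 714, 674 and 595 in control and 1218, 1382, 855 and 2556 in Con A + PBS mice. Control mouse 1 lay among the Con A + PBS mice, and the difference of 0.74 ± 0.41 did not pass with it (limma, adjusted p = 0.139) but was 1.07 and called without it (adjusted p = 0.0356). Fabp1, the abundant fatty acid binding protein of hepatocytes, scored 25805, 29668, 34359 and 23596 in control and 18917, 23596, 23596 and 8898 in Con A + PBS mice. The groups met at 23596, and the change of -0.68 ± 0.27 passed narrowly (limma, adjusted p = 0.0446). That call was kept in only 3 of 12 fits that left out a mouse: without control mouse 4 and without Con A + PBS mouse 2 or mouse 3. In the others the adjusted p ran from 0.0529 to 0.109, and without Con A + PBS mouse 4 the difference was -0.36.

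**Figure D2:**
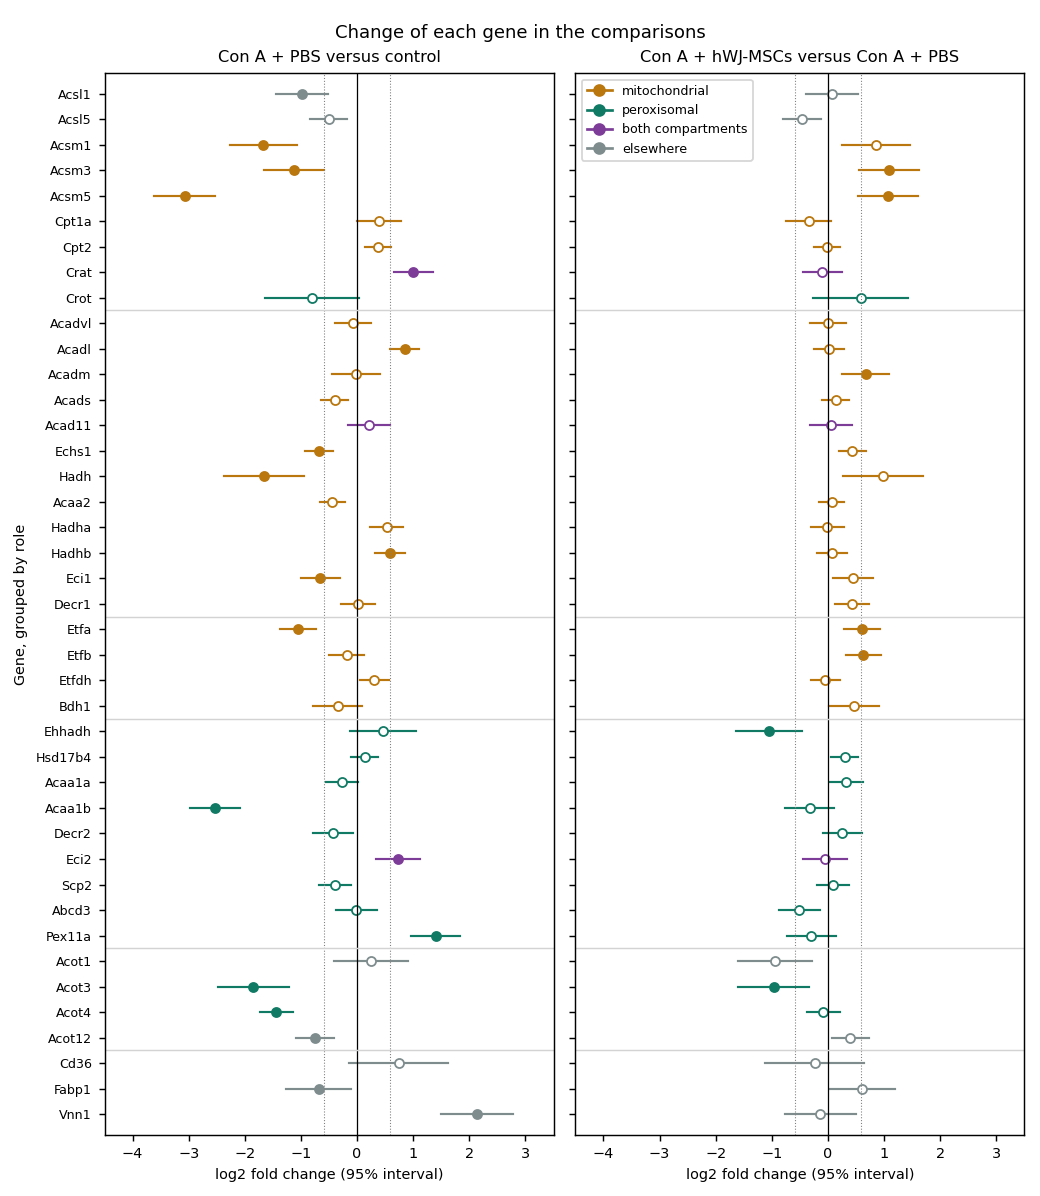
Points show the log2 fold change of each of the 41 genes (rows, in role groups) with its 95% interval for Con A + PBS against control (left) and Con A + hWJ-MSCs against Con A + PBS (right), filled where called, with dotted lines at a fold change of 1.5. On the left 13 filled points lie below 0 and 6 above, and on the right 5 mitochondrial genes lie above and 2 peroxisomal genes below.

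Set against Con A + PBS livers, the livers of mice that also received hWJ-MSCs had higher scores for 5 mitochondrial genes and lower scores for 2 peroxisomal ones. The synthetases Acsm3 and Acsm5, the medium-chain dehydrogenase Acadm and both subunits of the electron transfer flavoprotein, Etfa and Etfb, rose. The bifunctional enzyme Ehhadh and the thioesterase Acot3 fell. These were 5 and 2 of 41 genes, where 4.20% of all genes rose and 4.38% fell, so the count of genes that fell was near the share over all genes. The median log2 fold change was 0.07 over the 41 genes and 0.00 over all genes. This comparison and the last share the same 4 Con A + PBS mice, so a high or low score in one of them enters both with opposite sign, and the values are given side by side only.

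Acsm3 scored 1192, 1519, 1382 and 1361 in the Con A + hWJ-MSCs mice. All were above the Con A + PBS mice and within or near the control range of 1260 to 1592, and the change from Con A + PBS was 1.09 ± 0.25 (limma, adjusted p = 0.0252). Acsm5 scored 458, 649, 414 and 308, also above every Con A + PBS mouse but below every control mouse, with a change of 1.08 ± 0.25 (limma, adjusted p = 0.0255). Acsm1 scored 3976, 5250, 5138 and 3448, where the lowest overlapped the Con A + PBS mice, and its difference of 0.86 ± 0.28 did not pass (limma, adjusted p = 0.0572), though it did without Con A + PBS mouse 2 (1.06, adjusted p = 0.0237) and without Con A + hWJ-MSCs mouse 4 (0.97, adjusted p = 0.05).

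Acadm (chr3:153922357-153944632) scored 3936, 3506, 4310 and 3881 in control, 3765, 4956, 4860 and 2410 with Con A and PBS, and 5608, 6182, 5783 and 6976 with Con A and hWJ-MSCs. The Con A + hWJ-MSCs mice were the 4 highest of the 12, the other groups overlapped, and the change from Con A + PBS was 0.67 ± 0.20 (limma, adjusted p = 0.0454). Etfa scored 5142, 4840, 6044 and 4289, above every Con A + PBS mouse and overlapping control at 6044, with a change of 0.61 ± 0.15 (limma, adjusted p = 0.0279). Etfb scored 4570, 3982, 4570 and 3810, above every Con A + PBS mouse and every control mouse, with a change of 0.63 ± 0.14 (limma, adjusted p = 0.0255).

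Ehhadh (chr16:21761287-21787844) scored 6137, 6137, 3786 and 6291 in control, 5710, 6291, 7315 and 12175 with Con A and PBS, and 4636, 3072, 2565 and 4813 with Con A and hWJ-MSCs. All Con A + hWJ-MSCs values lay below Con A + PBS and overlapped control through control mouse 3, and the change was -1.05 ± 0.27 (limma, adjusted p = 0.0328). Acot3 scored 123, 78, 72 and 168, of which the highest lay above Con A + PBS mice 1 and 2, and its change from Con A + PBS was -0.97 ± 0.29 (limma, adjusted p = 0.0473). Acot1 scored 284, 232, 172 and 370, overlapping Con A + PBS, and its difference of -0.94 ± 0.30 was not called (limma, adjusted p = 0.0568) except without Con A + hWJ-MSCs mouse 4 (-1.12, adjusted p = 0.0378). Abcd3 scored 6950, 6162, 6328 and 8917, and its difference of -0.51 was called only without that same mouse (-0.63, adjusted p = 0.0331).

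**Figure D3:**
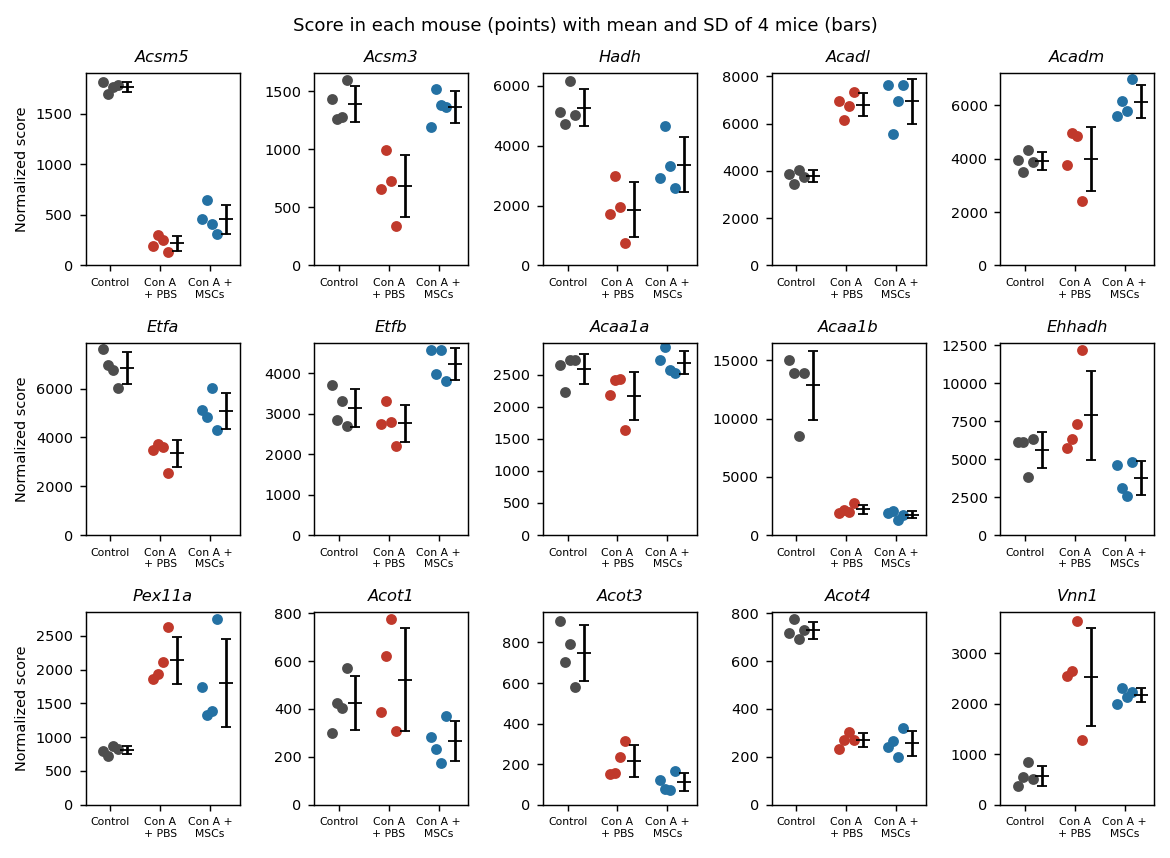
Points are the scores of single mice for 15 of the genes in the 3 groups, named below each axis, with bars for the mean and SD of 4 mice, on linear axes that start at 0. Acsm3, Acadm, Etfa and Etfb stand higher and Ehhadh lower in all 4 Con A + hWJ-MSCs mice than in any Con A + PBS mouse, while Acaa1b, Acot4, Pex11a and Vnn1 overlap between these groups.

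Each of these 7 calls was lost when some single mice were left out. Without Con A + PBS mouse 1, and without Con A + hWJ-MSCs mouse 2 or mouse 3, none of the 7 was called, and over all genes the calls went from 474 up and 495 down to 5 up and 2 down, 8 up and 10 down, and 4 up and 3 down in that order. Without Con A + PBS mouse 1 the adjusted p was 0.0752 for Acsm3, 0.0761 for Acsm5, 0.102 for Acadm, 0.0761 for Etfa, 0.0761 for Etfb, 0.0744 for Ehhadh and 0.0807 for Acot3. Without Con A + hWJ-MSCs mouse 2 or mouse 3 it was 0.077 or 0.0681 for Acsm3, 0.0778 or 0.0665 for Acsm5, and 0.109 or 0.0903 for Acadm. For Etfa it was then 0.077 or 0.0793, for Etfb 0.0733 or 0.0703, for Ehhadh 0.0973 or 0.0899, and for Acot3 0.129 or 0.119. Without Con A + PBS mouse 4, Acsm3 and Acsm5 remained called, while Etfa changed by 0.48 (adjusted p = 0.055), Etfb by 0.52 (0.0531), Acadm by 0.44 (0.0668), Ehhadh by -0.81 (0.0705) and Acot3 by -0.76 (0.114). Without Con A + hWJ-MSCs mouse 1, Acsm3 and Ehhadh remained called, with an adjusted p of 0.0506 for Acsm5, 0.0713 for Acadm, 0.0575 for Etfa, 0.0539 for Etfb and 0.0701 for Acot3. Ehhadh (0.0585) and Acot3 (0.0878) were also lost without Con A + PBS mouse 3, and Acadm without Con A + hWJ-MSCs mouse 4 (0.0714). Without control mouse 2, 3 or 4, Acadm (0.055, 0.0568 and 0.0555) and Acot3 (0.0591, 0.0603 and 0.054) were also lost, with unchanged differences of 0.67 and -0.97.

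The other genes of the spiral moved by less or varied by more. Echs1 scored 3356 ± 196 (SD, n = 4) in Con A + hWJ-MSCs livers, above every Con A + PBS mouse, and its difference of 0.44 ± 0.11 passed the adjusted p (0.0321, limma) but not the fold criterion. Decr1 scored 3448, 3448, 3804 and 3804, the 4 highest of the 12, with a difference of 0.42 ± 0.14 (limma, adjusted p = 0.0615). Hadh scored 2936, 4653, 3314 and 2576, partly within the Con A + PBS range, and its difference of 0.98 ± 0.33 was not called (limma, adjusted p = 0.0614) except without Con A + PBS mouse 2 (1.27, adjusted p = 0.0181). Bdh1 scored 2584, 2556, 2380 and 2318, level with or above the highest Con A + PBS mouse and within the control range, with a difference of 0.47 ± 0.20 (limma, adjusted p = 0.124). Acadl scored 7616, 5567, 6944 and 7616, still above every control mouse, and differed from Con A + PBS by 0.02 (95% interval -0.24 to 0.28). The trifunctional subunits Hadha and Hadhb differed by -0.01 and 0.07, and Cpt2, at 2513, 2296, 2564 and 2805, by -0.02.

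Several of the genes with the strongest changes after Con A were not called between the Con A groups. Acaa1b scored 1902, 2074, 1298 and 1759 in Con A + hWJ-MSCs mice, overlapping Con A + PBS, with a difference of -0.33 ± 0.20 (95% interval -0.76 to 0.11). Acot4 scored 240, 266, 198 and 322 and differed by -0.08 (95% interval -0.38 to 0.21). Pex11a scored 1741, 1324, 1388 and 2746 and differed by -0.30 (95% interval -0.73 to 0.14). Vnn1 scored 1990, 2314, 2125 and 2222, within the Con A + PBS range, and differed by -0.13 (95% interval -0.77 to 0.50). Fabp1 scored 25805, 29668, 25805 and 25805, above every Con A + PBS mouse, but its difference of 0.61 ± 0.27 did not pass (limma, adjusted p = 0.125), and Cd36 scored 918, 741, 1291 and 2184, with a difference of -0.23 ± 0.41 (limma, adjusted p = 0.71).

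Relative to control livers, 7 of the 41 genes were lower and 7 higher in Con A + hWJ-MSCs livers, where 13.1% and 13.6% of all genes were, with medians of -0.08 over the 41 genes and 0.04 over all genes. Lower, with the log2 fold change, were Acsl1 (-0.91), Acsl5 (-0.97), Acsm1 (-0.81), Acaa1b (-2.86), Acot3 (-2.82) and Acot4 (-1.52), and Acsm5 was 3.99-fold lower. Higher, again on the log2 scale, were Crat (0.89), Acadl (0.87), Acadm (0.65), Hadhb (0.66), Eci2 (0.67), Pex11a (1.11) and Vnn1 (2.00). The call of Acsm1 (limma, adjusted p = 0.0336) was lost without control mouse 1 (0.072) or 3 (0.0887) and without Con A + hWJ-MSCs mouse 1 (0.0805) or 4 (0.0897). That of Acadm (adjusted p = 0.0192) was lost without control mouse 2 (0.0529) or Con A + hWJ-MSCs mouse 4 (0.0523). Acsm3, at -0.03 (95% interval -0.56 to 0.51), Fabp1, at -0.07 (-0.65 to 0.51), and Acaa1a, at 0.06 (-0.23 to 0.35), were not called against control.

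Taken by compartment, 7 of the 20 mitochondrial genes fell and 2 rose after Con A, with a median log2 fold change of -0.27, and 3 of the 11 peroxisomal genes fell and 1 rose, with a median of -0.40, where 19.2% of all genes fell and 19.5% rose. Against Con A + PBS, 5 of the 20 mitochondrial genes rose and none fell in Con A + hWJ-MSCs livers (median 0.43), while none of the 11 peroxisomal genes rose and 2 fell (median -0.08), where 4.20% of all genes rose and 4.38% fell. At an unadjusted limma p under 0.05, whatever the fold, 11 of the 20 mitochondrial genes were higher and 0 lower, and 2 of the 11 peroxisomal genes were higher and 3 lower, where 18.0% of all genes were higher and 16.6% lower. After Con A these shares of all genes were 32.5% higher and 28.2% lower, which serve as background for the unadjusted counts of other lists given further on. Against control, the Con A + hWJ-MSCs medians were 0.01 for the mitochondrial and -0.31 for the peroxisomal genes. Over the further genes listed below the order was the opposite. Their medians were -0.48 for 27 genes of mitochondrial oxidation and ketogenesis and -0.14 for 28 of peroxisomal oxidation.

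The mean log2 score of the mitochondrial genes, set to 0 over the control mice, was -0.07, -0.08, 0.10 and 0.05 in the control mice, -0.42, -0.21, -0.28 and -0.76 in the Con A + PBS mice and -0.08, 0.01, -0.03 and -0.05 in the Con A + hWJ-MSCs mice. The Con A + hWJ-MSCs mice lay within or at the edge of the control range, and all Con A + PBS mice lay below both. The same mean over the peroxisomal genes was -0.67, -0.50, -0.43 and -0.49 in the Con A + PBS mice and -0.61, -0.64, -0.96 and -0.48 in the Con A + hWJ-MSCs mice, which overlapped each other and lay below control, where the mice spanned -0.05 to 0.08. The mitochondrial minus the peroxisomal mean was -0.05, -0.08, 0.16 and -0.03 in control, 0.25, 0.29, 0.15 and -0.27 with Con A and PBS, and 0.53, 0.65, 0.93 and 0.42 with Con A and hWJ-MSCs. This difference was higher in each Con A + hWJ-MSCs mouse than in any other mouse, and Con A + PBS mouse 4 was the lowest of all. In groups it averaged 0.11 ± 0.26 (SD, n = 4) with Con A and PBS, and 0.64 ± 0.22 with Con A and hWJ-MSCs. These means describe the listed genes and were not tested.

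**Figure D4:**
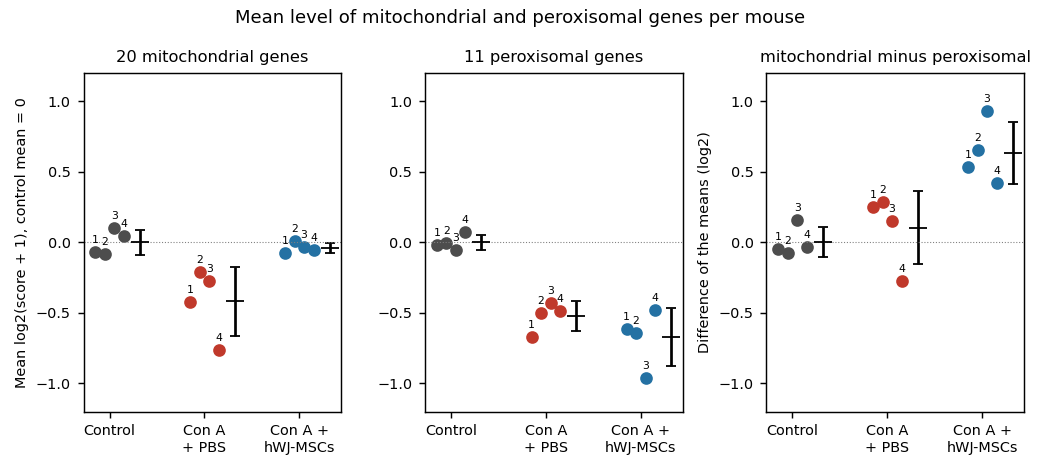
Each numbered point is 1 mouse, placed by the mean log2(score + 1) of the 20 mitochondrial genes (left) or the 11 peroxisomal genes (middle) relative to the control mean, or by the difference of these means (right), with bars for the group mean and SD of 4 mice. The Con A + hWJ-MSCs mice sit near 0 for mitochondrial genes, at -0.96 to -0.48 for peroxisomal genes and at 0.42 to 0.93 for the difference.

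How far the compartments differ depended on the genes counted. Without Acsm1, Acsm3 and Acsm5 the mitochondrial medians were -0.08 after Con A and 0.14 for Con A + hWJ-MSCs against Con A + PBS. With Eci2, Crat and Acad11 counted in, they took the same values of -0.08 and 0.14, and the peroxisomal median after Con A was -0.14. For 5 chosen peroxisomal enzymes of oxidation (Ehhadh, Hsd17b4, Acaa1a, Acaa1b and Decr2), the median for Con A + hWJ-MSCs against Con A + PBS was 0.26, the opposite sign to the -0.08 of all 11. This choice left out Scp2, a gene of both a thiolase and a sterol carrier. Without Con A + PBS mouse 4 the mitochondrial medians were -0.11 after Con A and 0.25 with cells.

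Other genes of these pathways, from lists that do not contain the 41, were read in the same way, against the same shares of all genes: 19.5% rose and 19.2% fell after Con A, and 4.20% were higher and 4.38% lower with cells than with PBS. Without Con A + PBS mouse 1, or without Con A + hWJ-MSCs mouse 2 or mouse 3, none of the genes in the 6 lists was called for cells against PBS by limma, so each count with cells rests on all of these mice. The other genes listed under mitochondrial oxidation and ketogenesis were grouped by pathway and include proteins found outside mitochondria, such as Bdh2 and Dbi. Of these, 27 of 30 had a row, and 18 fell and 2 rose after Con A (20 and 3 at an unadjusted limma p under 0.05), with a median of -1.02. Among the 18 were genes of branched-chain amino acid and propionate breakdown, which run on related chemistry (Ivd, Hibch, Hibadh, Auh, Pcca, Pccb, Mcee and Mut). The largest fall was that of Bdh2, a cytosolic hydroxybutyrate dehydrogenase, from 196 ± 53.7 (SD, n = 4) to 21.2 ± 7.54 (-3.18, limma, adjusted p = 7.62e-05), and the largest increase that of Acot2, the mitochondrial thioesterase, from 138 ± 25.9 to 380 ± 126 (1.41, adjusted p = 0.00215). In Con A + hWJ-MSCs livers 8 of the 27 were higher than in Con A + PBS livers and 1 lower (16 and 3 at an unadjusted p under 0.05), with a median of 0.51. With 1 mouse left out these counts ranged over 0 to 13 higher and 0 to 1 lower. The 8 were Hsd17b10, Auh, Ivd, Hibch, Pcca and Mcee, of amino acid and propionate breakdown, the acyl-CoA binding protein Dbi and the thioesterase Acot13, which rose most (1.02, adjusted p = 0.0267). Acot2 was the one lower (-1.15, adjusted p = 0.0372).

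Of the other peroxisomal oxidation genes, 28 of 30 had a row, and 10 fell and 2 rose after Con A, with a median of -0.36. Catalase (Cat), which breaks down the hydrogen peroxide of the first step, fell most (-2.63, limma, adjusted p = 3.7e-05), from a score of 58393 in all 4 control mice to 9771 ± 3140, and Acox2, the branched-chain acyl-CoA oxidase, rose most (0.89, adjusted p = 0.000858). In Con A + hWJ-MSCs livers 3 of the 28 were higher than in Con A + PBS livers and none lower (13 and 0 at an unadjusted limma p under 0.05, and 0 to 8 and 0 to 1 with 1 mouse left out), with a median of 0.37. These were Pxmp2, a peroxisomal membrane channel (1.70, adjusted p = 0.0198), Pecr, a reductase (1.42, 0.0188), and Nudt7, a coenzyme A hydrolase (0.60, 0.0462). The sign of this median was thus the opposite of that of the 11 peroxisomal genes followed here. Against control livers, 7 of these 28 were lower and 5 higher with cells, with a median of -0.14. Of the 27 mitochondrial oxidation and ketogenesis genes 13 were lower and 2 higher, with a median of -0.48. Of all genes 13.1% were lower and 13.6% higher in that comparison.

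Of 15 peroxins, the assembly factors of peroxisomes, 1 fell after Con A (Pex7, -0.97, limma, adjusted p = 7.86e-05) and none rose (4 and 1 at an unadjusted p under 0.05), and Pex2 was higher with cells than without (0.67, adjusted p = 0.0362). Of 22 mitochondrial protein import and chaperone genes, 4 rose and none fell after Con A (11 and 3 at an unadjusted limma p under 0.05), with a median of 0.23. The count that rose was near the 19.5% over all genes, and the largest increase was that of the import receptor Tomm70a (0.97, adjusted p = 0.00122). None of these 22 was called for Con A + hWJ-MSCs against Con A + PBS by limma (6 higher and 0 lower at an unadjusted p under 0.05), with a median of 0.08. Among 13 of 15 further genes of uptake and activation, 8 fell and 3 rose after Con A, led by the acetyl-CoA synthetase Acss2 (-3.40, adjusted p = 1.78e-07) and the adipocyte-type binding protein Fabp4 (3.20, adjusted p = 2.13e-07). With cells 3 of the 13 were higher and 2 lower than without, led by the lipoprotein lipase Lpl (1.26, adjusted p = 0.0451) and the synthetase Acsl4 (-1.18, adjusted p = 0.0168).

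Of 30 regulators and other targets of PPARalpha, 29 had a row, of which 11 rose and 4 fell after Con A, with a median of 0.35. Those that rose included lipid droplet genes (Plin2, Plin4, Cidec, Hilpda and G0s2), fatty acid omega-hydroxylases (Cyp4a12a, Cyp4a14 and Cyp4a31), the lipase inhibitor Angptl4, the kinase Pdk4 and the transcription factor Creb3l3. Cidec rose most, from 7.75 ± 3.86 to 921 ± 685 (6.52, limma, adjusted p = 5.88e-06), and the coactivator Ppargc1b fell most, from 64.2 ± 19.2 to 20.2 ± 2.06 (-1.57, adjusted p = 0.000611). In Con A + hWJ-MSCs livers none was higher and 3 were lower than in Con A + PBS livers (0 and 8 at an unadjusted limma p under 0.05), namely Plin2 (-1.38, adjusted p = 0.0241), Hilpda (-1.75, 0.0316) and Pdk4, which fell most (-2.67, 0.0296). With 1 mouse left out 0 to 7 were lower. Pdk4 scored 1336, 667, 1939 and 10968 in Con A + PBS mice and 344, 198, 266 and 628 in Con A + hWJ-MSCs mice. The groups did not overlap, but mouse 4 stood far above the other Con A + PBS mice, and without it the difference was -1.87 (limma, adjusted p = 0.0383). The call of Pdk4 was also lost without Con A + PBS mouse 3 (limma, adjusted p = 0.0532) or Con A + hWJ-MSCs mouse 1 (0.0567). Con A + PBS mouse 4 was also the highest for Hilpda, at 1192 where the other Con A + PBS mice scored 202 to 348, and without it that difference was -1.24 (limma, adjusted p = 0.0477). Ppara itself, named after its values were seen, differed by 0.15 after Con A (adjusted p = 0.722) and by -1.03 with cells against Con A + PBS (adjusted p = 0.0539), neither called, and was lower with cells than in control livers (-0.89, adjusted p = 0.046).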

How the data were processed

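Liver RNA of 12 mice (4 per group) was made into poly-A selected libraries with a kit that does not mark strand and sequenced as 150 bp paired-end reads, per the labels. The submitters' processing notes name Bowtie2 2.2.1, RSEM 1.2.18 and mm10, with no role or order. The authors deposited 1 table of whole-number scores, 1 row per gene, that sum to nearly the same total and share 1 median and 1 largest value in every mouse, so they had been normalized between mice. How was not given in the sources used here. They were used as a score, not as read counts, so no count model was run, and neither depth nor counting error could be given. The 95% intervals are limma's, from the spread between mice.

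Log2(score + 1) of all 11289 genes in all 12 mice was fitted with limma 3.58.1 (R 4.3.3, lmFit and eBayes with a trend), with Benjamini-Hochberg adjustment over all genes. Calls needed a fold change over 1.5 with an adjusted p under 0.05. The added 1 understates changes of low scores. Replicates were separate mice. The code was tested on simulated data. The 41 genes, their compartments and the other gene lists were chosen with earlier results of these data known, so no list was tested. All 41 genes were accounted for. Values of every mouse were given, within each role, for the 2 genes with the largest and the 1 with the smallest change after Con A and for genes called between the Con A groups. From other lists the largest called change in each direction was named. Genes beyond this rule were added where a result turned on them. Shared 100-base windows were counted over protein-coding transcripts. Promoter windows were 250 bases from RefSeq. Alternatives were other pseudocounts, filters, normalizations, variance models, fits of 8 mice, thresholds, a replicate block and leaving out each mouse. A choice of 5 peroxisomal enzymes and one without 3 synthetases were added after seeing the data.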

Additional observations from a re-analysis of the deposited data

Results flagged for a closer look

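In 123 tests of a group of 4 mice (41 genes in 3 groups), 11 found 1 mouse further from its group than Dixon's critical ratio at the 95% level allows. Chance flags about 1 in 20 such groups of continuous values. That rate does not apply to 3 of the 11, both for Scp2 and the one for Fabp1, where the other 3 mice shared 1 score, so that any other score would have been found.

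Con A + PBS mouse 4 was the far one for 4 genes. It scored 1535 for Acads, where the other 3 mice scored 1903 to 1958, and 1962 for Decr1, where they scored 2974 to 3046. It scored 5710 for Eci2 against 3252 to 3522, and 13247 for Abcd3 against 8917 to 9424.

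Among control mice, mouse 3 scored 3786 for Ehhadh against 6137 to 6291, and mouse 2 scored 2234 for Acaa1a against 2642 to 2722. Mouse 1 scored 1649 for Cd36 against 595 to 714. Mouse 4 scored 23500 for Scp2, where the other 3 shared the score 20792.

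In the Con A + hWJ-MSCs group, mouse 3 scored 2078 for Decr2 against 3161 to 3227. Mouse 2 scored 20792 for Scp2, where the others shared 16262, and 29668 for Fabp1, where the others shared 25805.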

How the results depend on the processing

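A pseudocount of 10 and a minimum mean of 100 changed no call of the 41 genes in any comparison. Median centring could change nothing, because every mouse already had the same median score of 352, and quantile normalization, which also changed no call of the 41, could move little, because the mice also shared their largest score and nearly their totals. With a fold change above 2, 8 genes fell and 2 rose after Con A, 1 fell and 2 rose for Con A + hWJ-MSCs against Con A + PBS, and 4 were lower and 2 higher against control. For Con A + hWJ-MSCs against Con A + PBS, the fit of only the 8 mice compared gave 0 down and 3 up, the fit without a trend 1 down and 4 up, and unadjusted p-values 3 down and 8 up. Leaving out each mouse gave 0 to 4 down and 0 to 7 up there, against 2 and 5 with all mice. It gave 12 to 14 down and 5 to 7 up after Con A, and 6 to 10 down and 6 to 7 up against control. Fits of only the 8 mice compared gave 12 down and 6 up after Con A, and 9 down and 7 up against control. The cause was not tested.

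Mitochondrial medians with a mouse left out ranged over -0.34 to -0.11 after Con A and 0.25 to 0.49 with cells against Con A + PBS, and the peroxisomal median of Con A + hWJ-MSCs against control over -0.47 to -0.27, where -0.47 came without control mouse 1. Mitochondrial medians were -0.076 and 0.14 both without the 3 medium-chain synthetases and with the genes of both compartments counted in, and the peroxisomal median after Con A was then -0.14. For the 5 chosen peroxisomal enzymes alone, without Scp2, the median with cells against Con A + PBS was 0.26, the opposite sign to the -0.08 of all 11, and that against control -0.17.

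Mice of equal replicate number deviated together with correlations of -0.118 to 0.375, and mice of different number with -0.385 to 0.141. The highest, 0.375 for mouse 2 and 0.244 for mouse 4, were between equal numbers of the Con A groups. The main fits did not pair mice by number, and whether the numbers pair mice is not known. With the replicate block 13 genes fell and 6 rose after Con A, 2 fell and 7 rose with cells against Con A + PBS, and 8 were lower and 7 higher against control. Over all genes, the calls with cells against Con A + PBS went from 474 up and 495 down to 679 up and 618 down with the block. DESeq2 was not run because the scores are not counts. No gene of the 41 reached the table's largest score. Depth could not be assessed.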
